A study of Mus musculus with 12 samples.

Results

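Glycolysis, the exchange of lactate between cells and the tricarboxylic acid (TCA) cycle were described here through 33 genes, chosen by name for their place in these pathways, with earlier results of these data known. The 33 members were 34 of the 33906 gene identifiers in the expression tables, since the name Aldoa belongs to 2 identifiers, the second of which had too few reads to be tested. All 33 passed the filter on low values, which left 18118 genes for testing. The RNA came from the lumbar spinal cord of 12 mice, with 3 mice in each of 4 groups. Wild-type healthy mice without a stated treatment made up group H (H1, H2 and H4). All mice of groups P, C and E were of a model of amyotrophic lateral sclerosis (ALS). Group P was given phosphate-buffered saline as the negative control (P66, P67 and P74), and group C was given manganese-doped carbon dots, a particle with enzyme-like activity (C79, C84 and C85). Mice E75, E77 and E90 were taken to be those given edaravone, a radical scavenger. This reading is by elimination, because edaravone appears in the series text with the letter D, which no sample carries. Each number stands for a separate mouse per the labels. The sources used here do not give the transgene or allele of the model, the strain, age and sex of the mice, or the doses.

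Glycolysis splits glucose into pyruvate in the cytosol, and lactate dehydrogenase converts pyruvate into lactate and back. Pyruvate that enters mitochondria is made into acetyl-CoA by pyruvate dehydrogenase and oxidised in the TCA cycle, while the malate-aspartate shuttle carries the electrons of cytosolic NADH into mitochondria. In the nervous system, glia are thought to pass lactate to axons through monocarboxylate transporters, and oligodendrocytes and astrocytes carry the transporter MCT1, the product of Slc16a1.

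The values are FPKM (reads or fragments per kilobase of a gene's exons, scaled to sequencing depth). The length is that of all annotated exons of a gene together, which can be far longer than a transcript. It was 4133 bases for Gapdh, beside 1420 for its longest coding transcript, and 3263 beside 2786 for Aldoc. Levels of different genes can thus be set side by side only roughly. Differences are on the log2(FPKM + 1) scale, with the standard error after ± and 3 mice in each group. Each was tested with limma over all 18118 genes, with Benjamini-Hochberg adjusted p-values and a threshold of 0.05. Each library held 16.8 to 19.8 M recovered reads. Markers of spinal cord were present in every library. Mbp of myelin had 1199.8 to 2539 FPKM, Snap25 of neurons 242 to 427 FPKM and Chat of motor neurons 3.41 to 16.6 FPKM. Mouse H1 stood apart in skeletal muscle markers, with 796 FPKM of the muscle actin Acta1 against 46.9 in H2 and 6.25 in H4. In group P, Acta1 was 35.3 FPKM in P74, against 1.25 in P66 and 3.23 in P67. In this bulk tissue, fewer cells of a type and less RNA per cell cannot be told apart.

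The promoters of 2 genes are shown, 1 of the gene that rose in the ALS mice and 1 of a gene that fell. They do not stand for the range among the members. Both run over the 250 bases before the RefSeq start on GRCm38.p6, with the motif ACGTG, searched on both strands, in capitals. ACGTG is the core of the site bound by the hypoxia-inducible factor HIF-1 and is also contained in the E-box CACGTG. The genes shown and the motif were chosen after the values had been seen.
Slc16a1 (chr3:104638414-104638663, plus strand): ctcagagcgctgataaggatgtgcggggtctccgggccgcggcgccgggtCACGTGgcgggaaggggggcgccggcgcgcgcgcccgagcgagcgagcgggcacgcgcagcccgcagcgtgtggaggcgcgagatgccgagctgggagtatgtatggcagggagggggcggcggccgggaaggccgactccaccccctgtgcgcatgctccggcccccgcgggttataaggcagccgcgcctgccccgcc
Eno2 (chr6:124769674-124769923, minus strand): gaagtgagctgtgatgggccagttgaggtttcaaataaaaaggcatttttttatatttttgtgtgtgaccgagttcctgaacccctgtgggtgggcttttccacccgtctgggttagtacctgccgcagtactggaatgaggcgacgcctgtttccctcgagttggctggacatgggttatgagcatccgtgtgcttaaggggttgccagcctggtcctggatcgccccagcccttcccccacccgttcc
The Slc16a1 promoter holds 2 overlapping copies of ACGTG, 1 on each strand, which together spell CACGTG, and 1 more copy lies 20 bases after the start. The Eno2 window holds none. The 2 are not the extremes of the members, since a window of 300 bases of Ldha holds 5 copies. Promoters of 300 bases were found in RefSeq for 30 of the 33 members (48 promoters, several genes having more than 1), and 22 of the 48 (45.8%) hold ACGTG on either strand. The share over all 32851 mouse promoters in the same table is 19.6%. These windows are not separate units, since some windows of 1 gene overlap. Windows of Ogdh begin at 6291347, 6291356 and 6291409 on chr11, and each holds the motif. The members' promoters are richer in G and C, with a median of 59.5% against 52.7%, and among the 8376 promoters within 5 points of the members' median the share is 24.2%. CACGTG was in 14.6% of the members' promoters and 7.15% of all, and the GC box GGGCGG in 52.1% and 35.7%. By gene, 15 of the 30 hold ACGTG in at least 1 window (Hk1, Hk2, Pfkm, Aldoa, Aldoc, Gapdh, Pgk1, Pgam1, Pkm, Ldha, Slc16a1, Slc16a3, Pdk2, Ogdh and Mdh1). The share by gene over all mouse genes was not computed. Of the 4 shuttle genes Mdh1 holds it and Mdh2, Got1 and Got2 do not. A match says that the letters occur and not that a factor binds there.

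The 33 genes spanned a wide range of levels, and their order depends on the exon length by which each was divided. The most abundant by the mean of all 12 libraries was Aldoc, the aldolase of astrocytes, at 506 FPKM. Ldhb followed at 344 FPKM, Aldoa at 244, Pkm at 241 and Mdh1 at 225. The lowest were the monocarboxylate transporters Slc16a7 and Slc16a3, at 1.31 and 1.25 FPKM, and the hexokinase Hk2 at 3.05. Aldoa, Pkm and Mdh1 lay closer to each other than the spread among mice, with ranges of 194 to 385, 177 to 312 and 171 to 277 FPKM. The value of Gapdh, a widely used reference gene, was 41.1 FPKM. Gapdh has 77 near-identical copies among the annotated genes at other places (at least 300 bases at 95% identity or more, 74 of them pseudogenes). Copies without an annotated transcript were not searched. The copies took a median of 844 reads per library beside 2810 for Gapdh itself. For this reason and for its long exon union the level of Gapdh is uncertain.

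In ALS mice given saline, the lactate transporter gene Slc16a1 rose, while the neuronal enolase Eno2 and the mitochondrial shuttle enzymes Mdh2 and Got2 fell. These 4 of 33 members passed in P against H, beside 15.5% of all tested genes. The single member that was higher compares with 12.2% of all genes, and the 3 that were lower with 3.26%. The members' median difference was -0.094, the median over all genes was 0.069, and 24 of the 33 differences were below 0. The share of all genes below 0 was not computed. At an unadjusted p under 0.05 stood 13 members (39.4%, beside 32.7% of all genes), 2 higher and 11 lower. The voom alternative on recovered reads called 4 members as well, beside 3100 of all genes. It had 14 members at an unadjusted p under 0.05, beside 5994 of all genes. Scaling by the median ratio of genes moved the balance of calls. All genes then gave 1396 higher and 1230 lower calls in place of 2216 and 591, and the members gave 1 higher and 9 lower, beside 6.79% of all genes called lower. The 6 further members called lower there were Tpi1, Ldhb, Pdk2, Suclg1, Mdh1 and Got1, each of which had an adjusted p between 0.07 and 0.1 without that scaling.

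**Figure D1:**
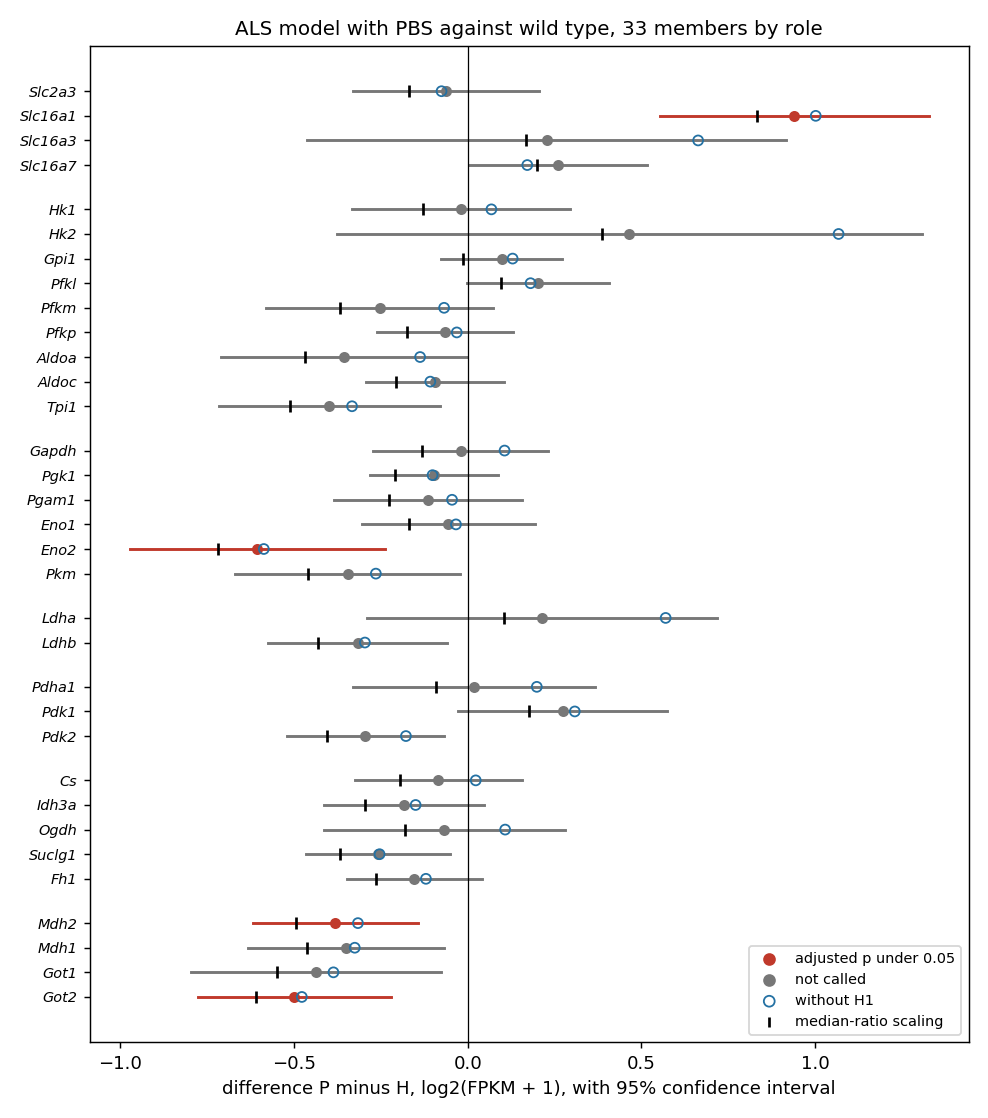
Differences between ALS model mice given saline and wild-type mice for the 33 members, grouped by role, on the log2(FPKM + 1) scale with 95% confidence intervals (n = 3 mice per group); open circles are the values without H1 and ticks those after median-ratio scaling. The interval of Slc16a1 lies from 0.55 to 1.33, and those of the 4 malate-aspartate shuttle genes lie below 0, 2 of them (Mdh2 and Got2) with an adjusted p under 0.05.

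Transport of glucose and lactate was the role with the largest single difference. Slc16a1 (ENSMUSG00000032902, chr3:104638668-104658462, plus strand, GRCm38) encodes MCT1, the main lactate transporter of glia and endothelium. Its level was 17.2, 17.6 and 12.9 FPKM in the wild-type mice H1, H2 and H4, 41.8, 30.1 and 23.9 FPKM in the saline mice P66, P67 and P74, 23.4, 26.2 and 24.6 FPKM in C79, C84 and C85 and 25.8, 20.8 and 24.9 FPKM in E75, E77 and E90. All 9 ALS libraries lay above all 3 wild-type libraries, and P66 was the highest of all. The mean was 15.9 ± 2.63 FPKM (SD, n = 3) in H and 31.9 ± 9.13 FPKM (SD, n = 3) in P, or 201% of H. The difference was 0.94 ± 0.18 (95% interval 0.55 to 1.33, limma adjusted p = 0.00657), higher in 3 of 3 mice, and it passed in all 20 alternative settings. Markers of other cells moved with it. Of the microglia and macrophage markers 6 of 6 were higher in P, with a summed level (mean log2 of the list) of 4.26 to 5.34 against 2.39 to 3.09 in H. Of the astrocyte markers 5 of 6 were higher (6.65 to 7.03 against 5.899 to 5.92), and of the oligodendrocyte markers 1 of 5 was lower (8.84 to 8.899 against 9.05 to 9.35). Of the meningeal and fibroblast markers 2 of 5 were higher (2.73 to 4.13 against 1.01 to 2.32), and of the Schwann cell markers 1 of 4 was higher (3.48 to 4.15 against 1.38 to 3.38). Of the erythroid markers 3 of 5 were lower (3.79 to 4.804 against 4.98 to 7.51). No endothelial marker of 4 passed (3.28 to 3.398 against 3.23 to 3.41). The part of these cell types in the rise of Slc16a1 was not tested.

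The other transporters did not pass. Slc16a7, which encodes the neuronal lactate transporter MCT2, had 1.08 ± 0.2705 FPKM (SD, n = 3) in H and 1.49 ± 0.279 FPKM (SD, n = 3) in P (0.26 ± 0.12, adjusted p = 0.146 by limma). Slc16a3, which encodes MCT4 of astrocytes and fast muscle, had 2.6, 0.544 and 0.3698 FPKM in the wild-type mice H1, H2 and H4 and 1.65, 1.46 and 0.874 FPKM in the saline mice P66, P67 and P74. The wild-type mice differed among themselves, H1 being 5.69 times the mean of H2 and H4, and the difference was 0.23 ± 0.32, adjusted p = 0.654 by limma. Slc2a3, which encodes the neuronal glucose transporter GLUT3, was 13.1 ± 0.5504 FPKM (SD, n = 3) in H and 12.6 ± 2.45 FPKM (SD, n = 3) in P (-0.063 ± 0.12, adjusted p = 0.757 by limma).

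**Figure D2:**
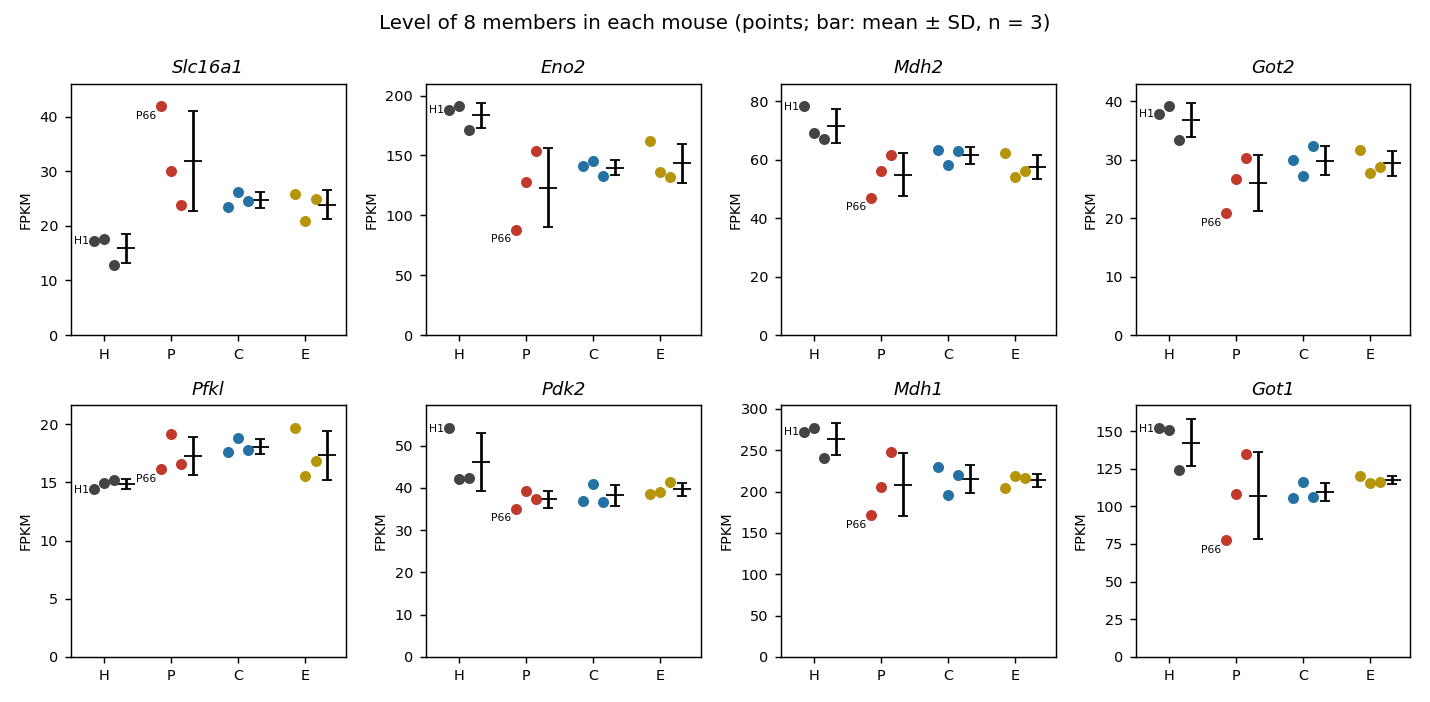
FPKM of 8 members in each mouse, by group (H wild type, P ALS model with saline, C with manganese carbon dots, E with edaravone by elimination), with mean ± SD of 3 mice beside the points and axes from 0. The first row holds the 4 members that passed in P against H; P66 is the highest library for Slc16a1 and the lowest for Eno2, Mdh2 and Got2.

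The first steps of glycolysis, from hexokinase to triose phosphate isomerase, gave 0 of 9 members that passed in P against H. Their median difference was -0.066, with 6 of 9 below 0. Tpi1, the triose phosphate isomerase, had 173 ± 18.7 FPKM (SD, n = 3) in H and 132 ± 25.8 FPKM (SD, n = 3) in P (-0.40 ± 0.15, adjusted p = 0.0827 by limma). The muscle and brain aldolase Aldoa was at -0.36 ± 0.16 and the astrocyte aldolase Aldoc at -0.094 ± 0.091, with adjusted p-values of 0.152 and 0.4999 by limma. Of the 3 phosphofructokinase genes, the liver form Pfkl was at 0.20 ± 0.094, the muscle form Pfkm at -0.25 ± 0.15 and the platelet form Pfkp at -0.066 ± 0.089, with adjusted p-values of 0.158, 0.259 and 0.648. Without H1, Aldoa was at -0.14 ± 0.12, adjusted p = 0.458 and Pfkm at -0.068 ± 0.12, adjusted p = 0.735 by limma. Pfkl had 14.4, 15 and 15.2 FPKM in the wild-type mice and 15.5 to 19.7 over the 9 ALS mice, without overlap. The hexokinase Hk1 (-0.019 ± 0.14, adjusted p = 0.945 by limma) and the glucose phosphate isomerase Gpi1 (0.10 ± 0.080, adjusted p = 0.422 by limma) showed differences within the spread among mice.

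The calls of Hk2 and Ldha depended on 1 wild-type mouse. Hk2 (ENSMUSG00000000628, chr6:82725025-82774454, minus strand) encodes the inducible hexokinase of muscle and of activated immune cells. Its level was 6.15, 1.13 and 0.959 FPKM in the wild-type mice H1, H2 and H4, 4.399, 3.196 and 2.47 FPKM in the saline mice P66, P67 and P74, 2.799, 3.27 and 3.67 FPKM in C79, C84 and C85 and 3.097, 2.36 and 3.05 FPKM in E75, E77 and E90. H1 was above every other library and H2 and H4 were below all 9 ALS libraries. The difference in P against H was 0.47 ± 0.38, adjusted p = 0.427 by limma with all mice and 1.07 ± 0.17, adjusted p = 0.006501 without H1. Ldha, the lactate dehydrogenase subunit of muscle and glycolytic cells (ENSMUSG00000063229, chr7:46841475-46855627, plus strand), was likewise highest in H1 and lowest in H2 and H4. Its level was 57.4, 26.5 and 27.3 FPKM in the wild-type mice H1, H2 and H4, 41.99, 42.5 and 36.96 FPKM in the saline mice P66, P67 and P74, 37.9, 40.9 and 41.4 FPKM in C79, C84 and C85 and 45.96, 35.5 and 42.6 FPKM in E75, E77 and E90. The limma difference was 0.21 ± 0.23, adjusted p = 0.553 with all mice and 0.57 ± 0.11, adjusted p = 0.0143 without H1. Without H1 the members called higher in P were Hk2, Ldha and Slc16a1, 3 of 33 beside 8.86% of all genes. No member was then called lower, beside 496 of all 18118 genes.

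H1 had 5.88 times the mean of H2 and H4 in Hk2, 5.69 times in Slc16a3, 2.14 times in Ldha, 1.58 times in Aldoa and 1.47 times in Pfkm. These 5 had the largest such ratios of the 33 members. Skeletal muscle markers were highest in H1 as well. The muscle score was 7.81 in H1, 4.71 in H2, 1.79 in H4 and 0.362 to 4.39 in the ALS mice. In group P it was 4.39 in P74, against 0.718 in P66 and 1.24 in P67. H2 had the second highest score, but its Hk2, Ldha and Slc16a3 lay below all 9 ALS libraries. Of the 8 muscle markers 0 passed in P against H, and none was at 0 in every library. The muscle forms of other glycolytic enzymes were also high in H1. Eno3, the muscle enolase, had 118, 16.9 and 10.04 FPKM in H1, H2 and H4, and Pgam2, the muscle phosphoglycerate mutase, had 53.2, 9.03 and 3.51 FPKM. The part of muscle RNA in the levels of H1 was not tested. With the muscle score as a covariate the call of Slc16a1 in P against H was kept and those of Eno2, Mdh2 and Got2 were lost, at differences of -0.46, -0.26 and -0.37 (limma adjusted p = 0.144, 0.158 and 0.112). Calls over all genes also dropped with this covariate, to 886 higher and 193 lower in place of 2216 and 591.

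**Figure D3:**
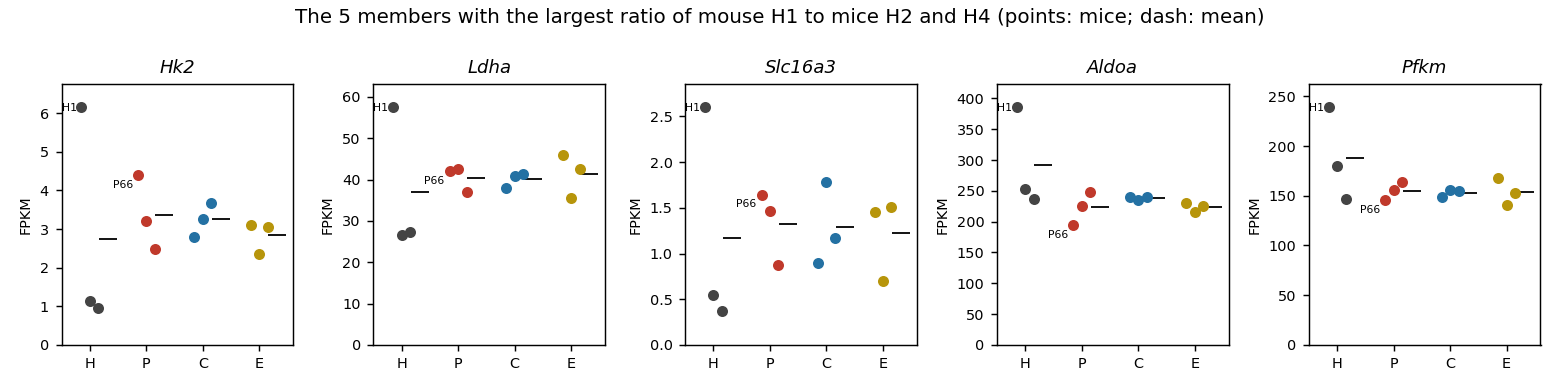
FPKM of Hk2, Ldha, Slc16a3, Aldoa and Pfkm in each mouse by group, with the group mean as a dash and axes from 0. In each panel the wild-type mouse H1 lies above every other library, and for Hk2, Ldha and Slc16a3 the other wild-type mice H2 and H4 lie below all 9 ALS model mice.

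In the second stage of glycolysis, from Gapdh to pyruvate kinase, 6 of 6 differences in P against H were below 0 and 1 passed (median -0.11). Without P66, 3 of 6 were below 0 (median -0.031), and without H1, 5 of 6 (median -0.073). Eno2 (ENSMUSG00000004267, chr6:124760053-124769673, minus strand) encodes the neuron-specific enolase. Its level was 188, 191 and 172 FPKM in the wild-type mice H1, H2 and H4, 88.02, 128 and 154 FPKM in the saline mice P66, P67 and P74, 142, 145 and 133 FPKM in C79, C84 and C85 and 162, 136 and 132 FPKM in E75, E77 and E90. The 3 wild-type libraries lay above all 9 ALS libraries, and P66 was the lowest. The mean was 184 ± 10.5 FPKM (SD, n = 3) in H and 123 ± 33.2 FPKM (SD, n = 3) in P (67.1% of H). The difference was -0.61 ± 0.17 (95% interval -0.97 to -0.24, limma adjusted p = 0.0328), lower in 3 of 3 mice. Its call was lost without H1, H2 or P67, where the difference was -0.59, -0.58 and -0.65, and without P66, where it was -0.38 ± 0.12, adjusted p = 0.09099 by limma. Neuronal markers moved with it. Of the general neuron markers 6 of 7 were lower in P, with a score of 5.92 to 6.54 against 6.79 to 6.98 in H and a median difference of -0.59. Of the motor neuron markers 2 of 6 were lower (2.22 to 2.98 against 2.81 to 3.72). P66 had the lowest score of both lists, and their part in the fall of Eno2 was not tested. The ubiquitous enolase Eno1 was at -0.056 ± 0.11 (adjusted p = 0.766 by limma).

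The remaining genes of this stage did not pass. Pkm, the pyruvate kinase of brain and muscle, had 281 ± 44.4 FPKM (SD, n = 3) in H and 222 ± 42.7 FPKM (SD, n = 3) in P (-0.35 ± 0.15, adjusted p = 0.128 by limma). Pgam1, the phosphoglycerate mutase, was at -0.11 ± 0.12, the phosphoglycerate kinase Pgk1 at -0.10 ± 0.085 and Gapdh at -0.020 ± 0.12, with adjusted p-values of 0.555, 0.4503 and 0.926. Pgk1 has 4 near-identical copies, Eno1 and Ldha have 3 each, Got2 has 2, and Gpi1, Tpi1, Pgam1, Pkm and Ldhb have 1 each. These copies took a median of at most 286 reads per library, beside at least 2309 for the genes themselves.

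Of the lactate dehydrogenase subunits, the oxidative form Ldhb was 394 ± 32.02 FPKM (SD, n = 3) in H and 317 ± 45.3 FPKM (SD, n = 3) in P (-0.32 ± 0.12, adjusted p = 0.0867 by limma). Its values were 404, 419 and 358 FPKM in the wild-type mice H1, H2 and H4 and 277, 308 and 366 FPKM in the saline mice P66, P67 and P74, with P74 above H4. Pyruvate dehydrogenase gave 0 of 3 that passed. Its catalytic subunit gene Pdha1 was at 0.019 ± 0.16, adjusted p = 0.951 by limma. The kinase genes Pdk1 and Pdk2 encode enzymes that switch pyruvate dehydrogenase off. Pdk1 was 5.701 ± 1.01 FPKM (SD, n = 3) in H and 7.13 ± 1.53 FPKM (SD, n = 3) in P (0.27 ± 0.14, adjusted p = 0.192 by limma), and Pdk2 was 46.2 ± 6.86 FPKM (SD, n = 3) and 37.3 ± 2.12 FPKM (SD, n = 3) (-0.29 ± 0.10, adjusted p = 0.0723 by limma). For Pdk2, all 9 ALS libraries (35.1 to 41.5 FPKM) lay below the wild-type values of 54.1, 42.05 and 42.5 FPKM.

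The TCA cycle gave 5 of 5 differences below 0 in P against H and 0 that passed (median -0.15). Without P66, 4 of 5 were below 0 (median -0.092), and without H1, 3 of 5 (median -0.12). Suclg1, a subunit of succinyl-CoA ligase, had 24.9, 24.9 and 24.5 FPKM in the wild-type mice H1, H2 and H4, 18.4, 20.97 and 22.4 FPKM in the saline mice P66, P67 and P74, 26.2, 21 and 25.2 FPKM in C79, C84 and C85 and 22.4, 21.9 and 21.1 FPKM in E75, E77 and E90. The wild-type values had an SD of 0.212 FPKM and lay above all 3 values of P, while group C overlapped them, and the difference in P against H was -0.26 ± 0.095, adjusted p = 0.0853 by limma. Citrate synthase (Cs) was at -0.085 ± 0.11, the isocitrate dehydrogenase subunit Idh3a at -0.18 ± 0.11, the oxoglutarate dehydrogenase Ogdh at -0.068 ± 0.16 and the fumarase Fh1 at -0.15 ± 0.089. Their adjusted p-values by limma were 0.628, 0.25, 0.801 and 0.251.

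The malate-aspartate shuttle had the lowest median difference of the roles, -0.41, with 4 of 4 genes below 0 and 2 that passed. Mdh2 (ENSMUSG00000019179, chr5:135778480-135790398, plus strand), the mitochondrial malate dehydrogenase of the shuttle and of the TCA cycle, had 78.2, 69.3 and 67.1 FPKM in the wild-type mice H1, H2 and H4, 47.03, 56 and 61.6 FPKM in the saline mice P66, P67 and P74, 63.2, 58.3 and 62.9 FPKM in C79, C84 and C85 and 62.2, 54.1 and 56.3 FPKM in E75, E77 and E90. All 9 ALS libraries lay below all 3 wild-type libraries. The mean was 71.5 ± 5.91 FPKM (SD, n = 3) in H and 54.9 ± 7.35 FPKM (SD, n = 3) in P (76.7% of H), and the difference was -0.38 ± 0.11 (limma adjusted p = 0.03601), lower in 3 of 3 mice. Got2 (ENSMUSG00000031672, chr8:95864134-95888547, minus strand), the mitochondrial aspartate aminotransferase, had 37.9, 39.1 and 33.5 FPKM in the wild-type mice H1, H2 and H4, 20.8, 26.8 and 30.4 FPKM in the saline mice P66, P67 and P74, 29.97, 27.3 and 32.4 FPKM in C79, C84 and C85 and 31.7, 27.7 and 28.8 FPKM in E75, E77 and E90. Here too the wild-type and ALS libraries did not overlap. The mean was 36.8 ± 2.97 FPKM (SD, n = 3) in H and 26.01 ± 4.82 FPKM (SD, n = 3) in P (70.6% of H), and the difference was -0.50 ± 0.13 (limma adjusted p = 0.02398), lower in 3 of 3 mice. Got2 shares 434 exon bases with the opposite-strand gene model Gm45760, and reads of the pair cannot be told apart here.

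The cytosolic enzymes of the shuttle had differences of similar size and did not pass. Mdh1 had 272, 277 and 241 FPKM in the wild-type mice H1, H2 and H4 and 171, 205 and 248 FPKM in the saline mice P66, P67 and P74, with P74 above H4 (-0.35 ± 0.13, adjusted p = 0.0858 by limma). Got1 had 152, 151 and 124 FPKM in the wild-type mice H1, H2 and H4 and 77.5, 109 and 135 FPKM in the saline mice P66, P67 and P74, again with P74 above H4 (-0.44 ± 0.16, adjusted p = 0.0907 by limma). After median-ratio scaling all 4 shuttle genes passed as lower, beside 6.79% of all genes. P66 was the lowest library of all 12 for each of the 4, and without it the median of the shuttle was -0.25 and 0 passed. All genes then gave 129 lower calls in place of 591. The calls of Mdh2 and Got2 were also lost without H1, H2 or P67, and that of Mdh2 without C79 or C85. Without H1, H2 or P67 the difference was -0.32, -0.40 and -0.40 for Mdh2 and -0.48, -0.45 and -0.53 for Got2. The neuron score of P66 (5.92) was the lowest of the 12 libraries as well, and its part in these values was not tested.

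Over the 33 members, 5 (Aldoc, Eno2, Pdk2, Mdh2 and Got2) had all 9 ALS libraries below all 3 wild-type libraries, which held for 2.63% of all tested genes. The members Pfkl and Slc16a1 had all 9 above, which held for 14.1% of all genes, and 26 overlapped. P, C and E are compared with the same 3 wild-type mice, so the values of these comparisons are not independent of each other. A covariate for the position along the cord was a score of caudal Hox genes. It was 0.286 to 1.49 in H, 0.774 to 2.13 in P, 0.49 to 1.21 in C and 1.82 to 2.24 in E. The values of E lay above all those of H, so score and group are not separate there. With this covariate 16 members were called in P against H, beside 4003 of all 18118 genes. Of the 16 members 13 were lower, beside 6.13% of all genes. The other 3 were higher (Pdk1, Slc16a1 and Slc16a7), beside 2893 of all genes.

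Neither treated group gave a called member against wild type. In C against H limma called 0 of 33, beside 8.31% of all genes, while voom called 1. At an unadjusted p under 0.05 by limma stood 8 members (24.2%, beside 25.8% of all genes). In E against H limma called 0 of 33, beside 13.2% of all genes, and voom also called 1. Here 6 members had an unadjusted p under 0.05 by limma (18.2%, beside 29.7% of all genes). The gene that voom called was Slc16a1 in both, beside 1660 and 2789 of all genes. Slc16a1 was 24.7 ± 1.402 FPKM (SD, n = 3) in C and 23.8 ± 2.65 FPKM (SD, n = 3) in E, or 156% and 150.1% of H. Its difference from H was 0.62 ± 0.18, adjusted p = 0.0527 in C and 0.56 ± 0.18, adjusted p = 0.05603 in E by limma. Eno2 was 139.8 ± 6.47 FPKM (SD, n = 3) in C and 143 ± 16.4 FPKM (SD, n = 3) in E, and its difference from H was -0.39 ± 0.17, adjusted p = 0.17 in C and -0.36 ± 0.17, adjusted p = 0.177 in E by limma. Mdh2 was at -0.21 ± 0.11 and -0.31 ± 0.11 and Got2 at -0.29 ± 0.13 and -0.31 ± 0.13, with adjusted p-values of 0.242, 0.0809, 0.172 and 0.122. Without H1, Hk2 and Ldha were called higher in both, at 1.05 ± 0.17 and 0.56 ± 0.11 in C and 0.90 ± 0.17 and 0.60 ± 0.11 in E. Of all 18118 genes, 831 were then called higher in C and 1591 in E. Without P66, which enters these comparisons through the shared estimate of the spread alone, Slc16a1 and Eno2 passed in C against H (adjusted p = 0.0157 and 0.0405 by limma). Slc16a1, Eno2, Mdh2 and Got2 then passed in E against H (adjusted p = 0.0182, 0.0445, 0.0412 and 0.0498 by limma). Calls over all genes without P66 were 1976 in C against H and 2795 in E against H, in place of 1505 and 2393.

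Between the treated and the saline groups, no difference in a member passed. In C against P limma called 0 of 33 members (0.00552% of all genes, a single gene). A single member, Suclg1, had an unadjusted p under 0.05 (3.03%, beside 9.95% of all genes). By voom 1 member did, beside 1757 of all genes. Suclg1 was 24.1 ± 2.75 FPKM (SD, n = 3) in C against 20.6 ± 2.03 FPKM (SD, n = 3) in P, a difference of 0.22 ± 0.095, adjusted p = 0.485 by limma. The member farthest below 0 was Slc16a1 at -0.32 ± 0.18 (95% interval -0.71 to 0.067), and the one farthest above was Tpi1 at 0.24 ± 0.15 (-0.074 to 0.56). In E against P limma called 0 of 33 members and 0% of all genes. At an unadjusted p under 0.05 stood 0 members (4.91% of all genes), and 1 by voom (826 of all genes). Slc16a1 was at -0.38 ± 0.18 (-0.76 to 0.011) and Eno2 at 0.25 ± 0.17 (-0.12 to 0.61). In C against E limma called 0 of 33 members, beside 0.171% of all genes. At an unadjusted p under 0.05 stood 0 members (10.99% of all genes), and 1 by voom (1954 of all genes). The members there ran from Slc2a3 at -0.26 ± 0.12 (-0.52 to 0.013) to Tpi1 at 0.16 ± 0.15 (-0.15 to 0.48). The 95% interval of a member, which is not adjusted for the number of genes, reached 0.27 to either side at the median. The 3 comparisons gave 0 called members in all 20 alternative settings, voom included.

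**Figure D4:**
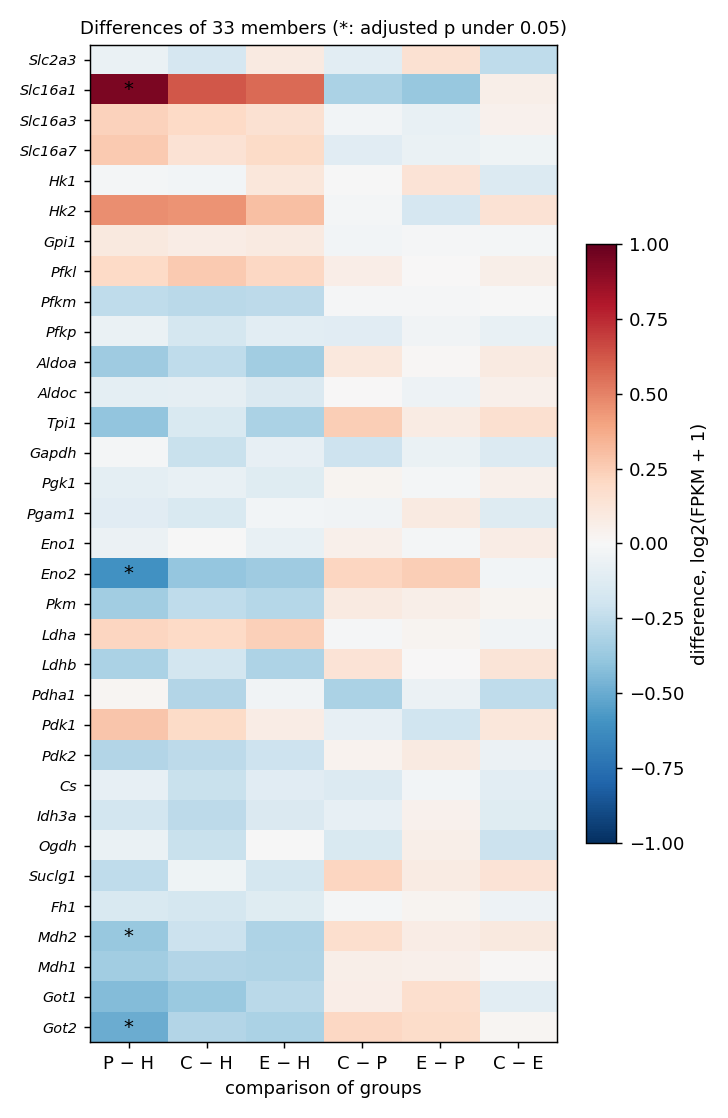
Differences of the 33 members on the log2(FPKM + 1) scale in the 6 comparisons of the 4 groups, with an asterisk where the adjusted p was under 0.05. Asterisks are in the P − H column alone (Slc16a1, Eno2, Mdh2 and Got2), and the 3 columns against H share the same wild-type mice.

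Ratios of isozymes within a library do not change with its scaling, and 11 pairs were compared between the 3 wild-type mice and the 9 ALS mice by an exact two-sided permutation test, which cannot give a p below 0.00909. After Benjamini-Hochberg adjustment over the 11 pairs, 0 passed. The log2 ratio of Eno2 to Eno1 was lower by 0.41 in the ALS mice, in 9 of 9, at the smallest p the test can give (exact permutation p = 0.00909, adjusted p = 0.1). The ratio itself was 1.68, 1.68 and 1.71 in the 3 wild-type mice (H1, H2, H4) and 0.951 to 1.501 in the ALS mice, without overlap. The group means of the log2 ratio were 0.76 in H, 0.20 in P, 0.37 in C and 0.48 in E. The wild-type mice agreed closely in this ratio (SD 0.016), H1 included.

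Pfkl to Pfkm was higher by 0.50 in log2 ratio (exact permutation p = 0.0182, adjusted p = 0.1) and Pdk1 to Pdk2 by 0.47 (exact permutation p = 0.0364, adjusted p = 0.133). For both, all 9 ALS mice lay above the wild-type mean, and the ranges of the groups overlapped. Without H1 the Pfkl to Pfkm difference was 0.29 (adjusted exact permutation p = 0.133). Ldhb to Ldha was 7.04, 15.8 and 13.1 in the 3 wild-type mice (H1, H2, H4) and 6.599 to 9.91 in the ALS mice (exact permutation p = 0.0818, adjusted p = 0.225). H1 lay inside the ALS range and H2 and H4 above it. The mitochondrial to cytosolic ratios of the shuttle differed little, by 0.009 for Mdh2 to Mdh1 and -0.019 for Got2 to Got1, with SDs among wild-type mice of 0.10 and 0.056.

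**Figure D5:**
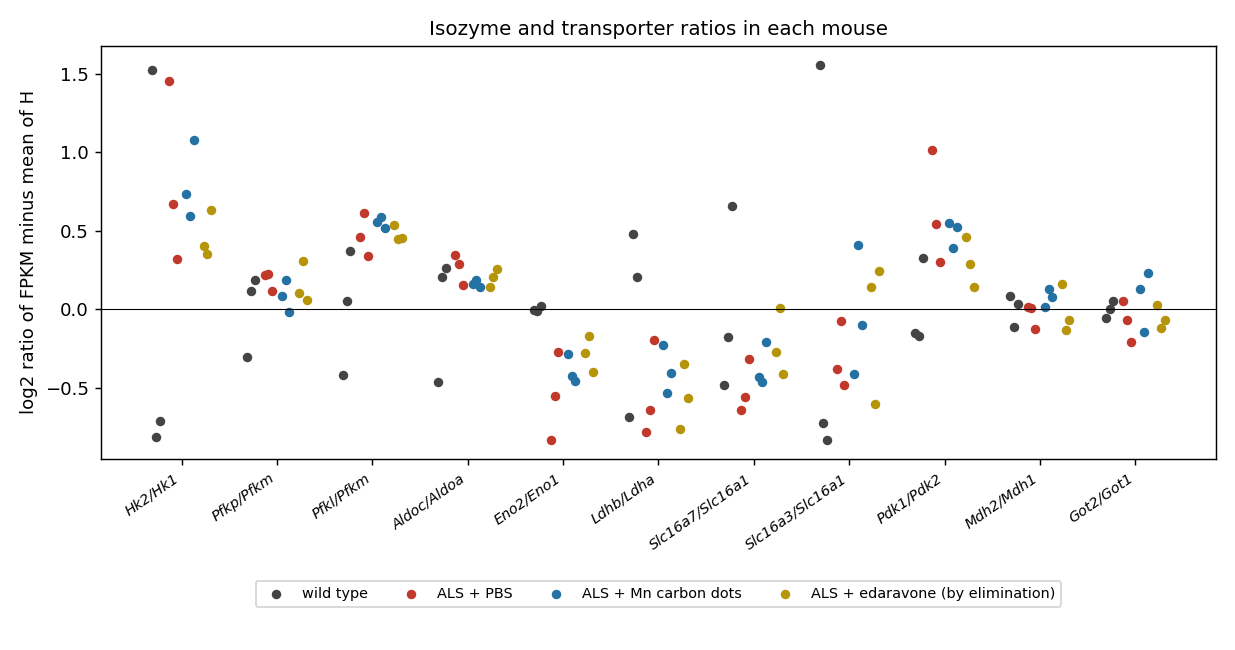
Log2 ratios of FPKM for 11 pairs of isozymes or transporters in each mouse, relative to the mean of the 3 wild-type mice. For Eno2/Eno1 the 9 ALS model mice lie below all wild-type mice, while for Hk2/Hk1, Slc16a3/Slc16a1 and Ldhb/Ldha the wild-type mouse H1 lies apart from H2 and H4.

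Of 86 further genes of the same pathways, 84 were tested. In P against H 9 were higher and 6 lower, 17.9% of the tested beside 15.5% of all genes. Of the 84, 32 had an unadjusted p under 0.05, beside 32.7% of all genes. The 8 with the smallest adjusted p are named. Hk3, the hexokinase of myeloid cells, had 0.518, 0.356 and 0.393 FPKM in the wild-type mice H1, H2 and H4 and 3.67, 2.301 and 1.84 FPKM in the saline mice P66, P67 and P74 (1.31 ± 0.19, adjusted p = 0.00189 by limma), with no overlap of H and P. Hif1a, the oxygen-regulated subunit of HIF-1, had 12.2, 12.9 and 14 FPKM in the wild-type mice H1, H2 and H4 and 29.3, 21.4 and 18.02 FPKM in the saline mice P66, P67 and P74 (0.75 ± 0.14, adjusted p = 0.00651 by limma), again with no overlap. The microglia and macrophage markers described above were higher in the same 3 libraries, and their part was not tested. G6pdx, which opens the pentose phosphate pathway, rose from 15.7 ± 1.87 FPKM (SD, n = 3) to 23.5 ± 2.24 FPKM (SD, n = 3) (0.56 ± 0.11, adjusted p = 0.00929 by limma). Pgm2, a phosphoglucomutase, rose by 0.60 ± 0.10, adjusted p = 0.00385 and Slc16a6, a transporter of the monocarboxylate family, by 0.60 ± 0.078, adjusted p = 0.000978. These 5 genes passed in all 20 alternative settings.

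Suclg2, the GTP-forming partner of Suclg1 in succinyl-CoA ligase, rose (0.48 ± 0.10, adjusted p = 0.0119 by limma), whereas Suclg1 was at -0.26 ± 0.095 and did not pass. Dlat, the acetyltransferase subunit of pyruvate dehydrogenase, fell from 26.4 ± 2.39 FPKM (SD, n = 3) to 20.2 ± 2.15 FPKM (SD, n = 3) (-0.37 ± 0.089, adjusted p = 0.01997 by limma). Mpc2, a subunit of the mitochondrial pyruvate carrier, fell from 9.42 ± 1.32 FPKM (SD, n = 3) to 5.93 ± 0.371 FPKM (SD, n = 3) (-0.58 ± 0.14, adjusted p = 0.0201 by limma). The calls of Suclg2, Dlat and Mpc2 were lost in 3, 6 and 4 of the 20 alternative settings. In C against H 4 of the 84 genes were higher and 0 lower, beside 8.31% of all genes called in either direction. In E against H 6 of the 84 were higher and 2 lower, beside 13.2% of all genes. In C against P, E against P and C against E limma called 0 of the 84. At an unadjusted p under 0.05 stood 8, 5 and 6 of them, beside 9.95%, 4.91% and 10.99% of all genes.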

How the data were processed

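Libraries of poly(A) RNA from lumbar spinal cord were made for 12 mice, 3 in each of 4 groups, taken from the labels. The tools were featureCounts, HISAT2 and cutadapt and the build GRCm38, per the submitters' processing notes. The sources used here do not give versions or the strand setting, and reads of overlapping genes on opposite strands cannot be told apart. The authors deposited 4 tables, 1 per group, of values that the tables name no unit for. They were settled as FPKM from the values. With union exon lengths of GENCODE M21, which matched 33829 of the 33906 identifiers, values of up to 50 steps were whole multiples of 1 step per library, to within 0.02, for 95.2 to 95.7% of them. The reads recovered by this step summed to 106.6 to 108.0% of the scaling total that the step implies. The reason for this excess was not tested. The files do not show if the counted units were reads or fragments.

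Tested genes had 10 or more recovered reads (as CPM of the median library) in 3 or more libraries and 15 or more over all libraries, which kept 18118 genes and set aside 15788. The deposited FPKM values were taken as log2(FPKM + 1), which understates the changes of low genes, and tested with limma 3.58.1 in R 4.3.3 (trended, robust moderation, 1 mean per group over all 12 libraries, 8 residual degrees of freedom, two-sided, Benjamini-Hochberg over all tested genes). The test was tried first on simulated data with a single spread for all genes and no outlying library. That trial does not show how the test does with mice such as H1 and P66. Voom on the recovered reads was an alternative, as were other scalings, filters, covariates and leaving out each library. A marker score is the mean log2(FPKM + 1) of a list in a library. Isozyme ratios were tested by exact permutation with scipy 1.17.1, and near-identical copies were searched among the GENCODE M21 transcripts with blast 2.17.0.

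All 33 members are named. Values in every library are given for members that passed and for some others (Hk2, Ldha, Suclg1 and those near a threshold), which were chosen after their values were seen. Of the other pathway genes, at most 8 that passed in P against H are named, by adjusted p, and Eno3 and Pgam2 were chosen after their values were seen. The members and lists were chosen with earlier results of these data known. Ldhc was not tested, and Pgk2 was not analysed here. Promoter sequences are those of RefSeq on GRCm38.p6.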

Additional observations from a re-analysis of the deposited data

How the results depend on the processing

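The 20 alternative settings were median-ratio scaling, a pseudocount of 0.1, no filter, an FPKM filter, the 2 groups alone, voom on recovered reads, a caudal Hox covariate, a skeletal muscle covariate and the 12 fits that each leave out a library. In all 20, Slc16a1 passed in P against H (0.73 to 1.12), and 0 members passed in C against P, E against P and C against E. The 4 members called in P against H became 10 after median-ratio scaling, 16 with the caudal covariate and 1 without the filter, with the 2 groups alone or with the muscle covariate, and 1 to 9 when a library was left out. Over all genes the 2807 calls became 2626 after median-ratio scaling, 4003 with the caudal covariate and 1444, of 32961, without the filter. They became 1471 with the 2 groups alone, 1079 with the muscle covariate and 933 to 3535 when a library was left out. The lowest counts came without H2, P66 or P67, and the highest without P74. In C against H the 0 calls became 1 with the pseudocount of 0.1, with voom or with the caudal covariate, 2 with the 2 groups alone, and 0 to 2 when a library was left out. The 1505 calls over all genes became 1835 with that pseudocount, 1660 with voom and 1941 with the caudal covariate. They became 1585 with the 2 groups alone and 567 to 1976 when a library was left out. In E against H the 0 calls of members became 2 after median-ratio scaling, 1 with the pseudocount of 0.1, with the 2 groups alone or with voom, 12 with the caudal covariate, and 0 to 4 when a library was left out. The 2393 calls over all genes became 2207 after median-ratio scaling, 2705 with that pseudocount and 1751 with the 2 groups alone. They became 2789 with voom, 3036 with the caudal covariate and 1159 to 2795 when a library was left out. The cause was not tested. The FPKM filter kept the same 4 calls in P against H.

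Members near 0 changed sign in P against H. With the muscle covariate Hk1 was at 0.14, Gapdh at 0.14, Pgam1 at 0.031, Eno1 at 0.027, Cs at 0.086 and Ogdh at 0.18. After median-ratio scaling Gpi1 was at -0.015 and Pdha1 at -0.092, and with the caudal covariate Pdha1 was at -0.10. Leaving out a library gave -0.15 to 0.081 for Hk1, -0.13 to 0.11 for Gapdh, -0.21 to 0.0018 for Pgam1, -0.11 to 0.029 for Eno1, -0.16 to 0.094 for Slc2a3, -0.034 to 0.66 for Slc16a3, -0.19 to 0.20 for Pdha1, -0.20 to 0.023 for Cs and -0.25 to 0.11 for Ogdh. Of the isozyme log2 ratios, Mdh2/Mdh1 was -0.035 with P against H only. Leaving out a library gave -0.0094 to 0.23 for Pfkp/Pfkm, -0.024 to 0.34 for Aldoc/Aldoa, -0.56 to 0.64 for Slc16a3/Slc16a1, -0.049 to 0.049 for Mdh2/Mdh1 and -0.051 to 0.0083 for Got2/Got1. No ratio passed in its 14 alternatives, which says nothing of stability, since a single pair at the smallest p of the full test (0.00909) already has an adjusted p of 0.1 over the 11 pairs. The cause was not tested. No paired analysis was possible because no mouse number is shared between groups. With 3 mice per group the median 95% interval of a member reached 0.27 to either side.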
